A study of Mus musculus with 39 samples.

Results

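The comparison described here sets interscapular brown fat of male BCL6-floxed, UCP1Cre mice against that of male BCL6-floxed mice without Cre, both on a C57BL/6J background and both housed at 30 °C. It uses 4 RNA libraries of each kind, 8 of the 16 RNA libraries of the series, and the remaining 8 come from the same genotypes at 22 °C. Every mouse carried Bcl6 alleles flanked by recombination sites, so the groups differ by the label for Cre, which the Ucp1 promoter drives in brown adipocytes and not in the other cells of the depot. Ages are not among the labels used here. Whether each library is a different mouse is not in the labels. The p-values measure only the spread among libraries, which may be technical, and the limma fit below takes that spread from all 16. Of 24116 gene entries, 13176 had a mean of at least 10 normalized counts over the 16 libraries and were tested on log2(value + 1) with limma, with p-values adjusted by Benjamini-Hochberg over all of them and a threshold of 0.05. Each BCL6 peak was counted only for the gene that the authors give as having the nearest transcription start. Among the tested genes 1021 had such a peak within 10 kb and 12155 had none. A gene counted as without a peak can therefore lie within 10 kb of a peak assigned to a neighbour. The peaks came from 1 BCL6 ChIP library of control brown fat at 30 °C, so that list has no replicate.

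BCL6 is a zinc finger protein that binds DNA through its fingers and recruits corepressors through its BTB domain, and it is best known from germinal centre B cells. Its binding motif resembles that of STAT proteins, the transcription factors that cytokine receptors activate, and several of its known targets encode feedback inhibitors of cytokine signalling. Brown fat burns fuel to make heat through the uncoupling protein UCP1, and at 30 °C mice need little of that heat. Whole tissue was sequenced, so fewer cells of a type and less RNA per cell cannot be told apart in any value below.

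Bcl6 itself went against the label. It read 2340, 2266, 1763 and 1020 normalized counts in control libraries 1 to 4 and 3269, 4451, 5159 and 4985 in Cre-labelled libraries 1 to 4. The groups did not overlap, the log2 difference was 1.32 ± 0.27 (SE; adjusted p = 0.00438), and the two-sided exact permutation p over the 8 libraries was 0.0286, the smallest that 4 against 4 can give. These are sums over the whole gene and do not show whether the floxed part was transcribed. Directions below are therefore those of the libraries labelled Cre-positive, called Cre-labelled.

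The libraries also differed in markers of other cells and of white fat. The 16 macrophage markers summed to 3886 to 4837 normalized counts in the controls and to 14555, 9546, 6736 and 17607 in Cre-labelled libraries 1 to 4. None of the 16 was at 0 in any of the 8 libraries, and 12 of them rose. The 18 skeletal muscle markers summed to 9648 to 17357 in the controls and to 215, 28645, 23987 and 4035 in Cre-labelled libraries 1 to 4, with 4 of the 18 at 0 in Cre-labelled library 1, and none of the 18 passed the test. The 15 brown adipocyte markers, of which none was at 0, had sums between 65342 and 74381 in controls and between 38273 and 45128 with the Cre label, and 6 of them fell. The 12 white fat enriched genes summed to 5378 to 6729 in the controls and to 14745 to 22823 with the Cre label, with 2 or 3 of the 12 at 0 in each library. Of the 8 tested, Nnat and Mest rose and Hoxc8 fell, and Nnat alone made up 9956 to 15798 of the sums with the Cre label. The call of Hoxc8 was lost without control library 1 or 3 or Cre-labelled library 4. Ucp1, the defining gene of the depot, was at 13596 to 18219 among controls against 3761 to 6829 among Cre-labelled libraries, so the tissue label held in both groups. The plot of summed markers by library shows that the Cre-labelled libraries rank differently for macrophage and for muscle markers.

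**Figure D1:**
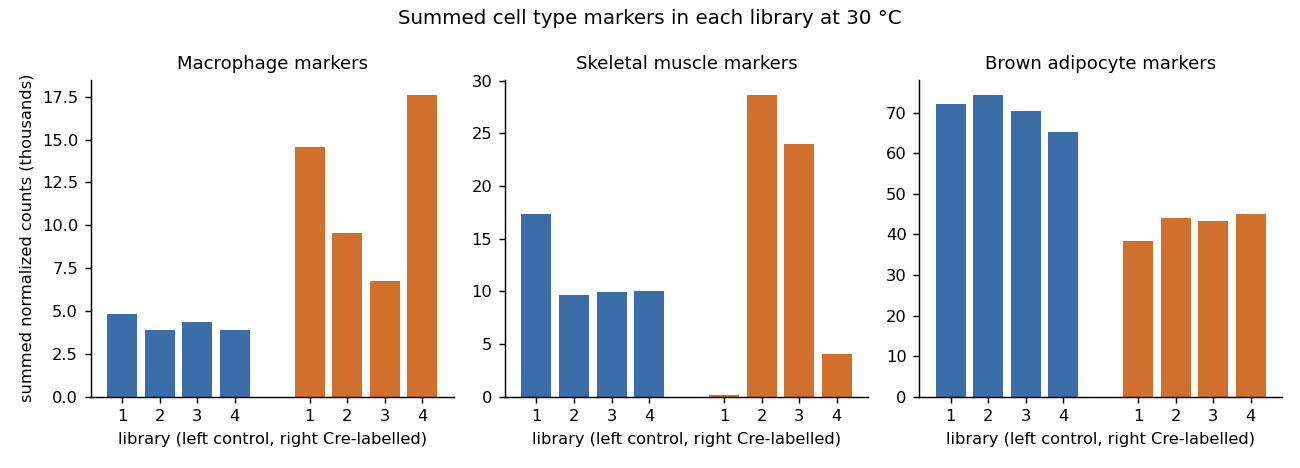
Summed normalized counts of 16 macrophage, 18 skeletal muscle and 15 brown adipocyte markers in each library at 30 °C, controls in blue and Cre-labelled libraries in orange, 1 bar per library. Cre-labelled library 1 has a muscle sum of 215 normalized counts, and the 4 Cre-labelled libraries lie above all controls for macrophage markers and below all controls for brown adipocyte markers.

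At 30 °C, 745 genes (5.65% of those tested) were higher and 902 (6.85%) lower with the Cre label. Most differences were modest: 271 of the higher and 206 of the lower genes differed by at least 2-fold, and the median log2 difference was 0.81 for higher and -0.66 for lower genes. The groups did not overlap between libraries for 643 of the higher and 844 of the lower genes, and over all tested genes they did not overlap for 22.9%. Totals of normalized counts lay between 9387313 and 9975035 per control library and between 8867615 and 9479495 per Cre-labelled library. Leaving out control library 4 gave 452 higher and 559 lower genes. Leaving out Cre-labelled library 1 gave 484 and 598, and leaving out Cre-labelled library 4 gave 488 and 660. Of the 216 genes that the rule for named genes takes, 153 kept their call whichever of the 8 libraries was left out. Where a gene named below lost its call, the libraries on which the call rests are given. The call of 0610005C13Rik, named below, was not followed through these fits.

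Promoters under a peak show what the peaks look like in sequence. RefSeq windows of 300 bases, 250 before to 50 after a start on GRCm38.p6 (the build also called mm10), were found for 10480 of the genes tested. The motif TTCNNNGAA, in which N is any base and which reads the same on both strands, is the core that STAT and BCL6 sites share. It was present in 8.30% of all 32851 windows and in 17.3% of the 214 windows that a peak covered by at least 90 bases. The longer form TTCCTNGAA, a subset of the first that was searched on both strands, was in 1.59% of all windows and 9.81% of the covered ones. The covered windows were ranked among themselves by the score of their peak, a ranking apart from the score groups defined below. Of the 53 with the highest scores 16 held TTCNNNGAA, and 21 of the other 161 did. Covered windows belonged to 7 higher genes, of which 3 held it (Igfals, Strip2 and Maff), and to 12 lower genes, of which none did. For Igfals and Strip2 the match lay inside the peak, and for Maff it lay outside. A match is a description of the letters and not proof of a bound site.

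The windows of Igfals (chr17:24877981-24878280, plus strand) and Strip2 (chr6:29916763-29917062, plus strand) are printed because they join a peak, a match and a higher level in the Cre-labelled libraries. That of Tchp (chr5:114707529-114707828, plus strand) is printed because its peak has the highest score, 30.0, over the windows of the 12 lower genes and it holds no match. Sequences are from RefSeq, 5′ to 3′, with TTCNNNGAA in capitals.
Igfals: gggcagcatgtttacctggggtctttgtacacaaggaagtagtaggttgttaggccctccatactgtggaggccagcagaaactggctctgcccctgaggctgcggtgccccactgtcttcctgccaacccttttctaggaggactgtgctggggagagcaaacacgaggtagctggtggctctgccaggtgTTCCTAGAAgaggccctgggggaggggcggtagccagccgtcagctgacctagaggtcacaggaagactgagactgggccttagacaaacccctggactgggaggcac
Strip2: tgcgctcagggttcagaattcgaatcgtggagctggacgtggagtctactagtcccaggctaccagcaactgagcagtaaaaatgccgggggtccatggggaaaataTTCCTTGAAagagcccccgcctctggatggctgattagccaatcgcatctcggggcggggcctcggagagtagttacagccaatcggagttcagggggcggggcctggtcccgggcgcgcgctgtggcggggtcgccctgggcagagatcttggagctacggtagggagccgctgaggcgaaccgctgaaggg
Tchp: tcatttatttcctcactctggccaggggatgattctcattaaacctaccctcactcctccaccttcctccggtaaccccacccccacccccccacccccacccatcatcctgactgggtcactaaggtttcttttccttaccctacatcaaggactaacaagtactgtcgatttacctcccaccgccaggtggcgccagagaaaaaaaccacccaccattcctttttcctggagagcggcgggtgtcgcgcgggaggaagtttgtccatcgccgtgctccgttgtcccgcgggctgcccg
The peak over the Igfals window (chr17:24878082-24878262, score 20.7) and that over the Strip2 window (chr6:29916785-29916965, score 9.12) both lay entirely within it. Each match is also of the longer form.

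Igfals encodes the acid-labile subunit, which holds insulin-like growth factors in circulating complexes. It read 49.9, 74.1, 33 and 64.8 normalized counts in the controls and 287, 381, 399 and 288 in the Cre-labelled libraries, a log2 difference of 2.64 ± 0.20 (adjusted p = 4.71e-07). No control library came near the Cre-labelled ones. Strip2 encodes a subunit of STRIPAK phosphatase complexes. It read 305, 332, 336 and 500 in the controls and 733, 548, 631 and 522 in the Cre-labelled libraries, a log2 difference of 0.74 ± 0.21 (adjusted p = 0.0306) with groups that did not overlap. Its call was lost without control library 1, 2 or 3 or Cre-labelled library 1 or 3 (highest adjusted p = 0.101), and that of Maff without control library 1, 3 or 4 or Cre-labelled library 1, 3 or 4 (highest adjusted p = 0.154). Tchp, which encodes trichoplein, a keratin-binding protein, fell by 0.57 on the log2 scale (adjusted p = 0.00815). Strip2, Maff and Tchp were chosen for their windows after their values were seen.

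A larger share of genes with a peak than of genes without one was higher, while the shares that were lower were close. Of the 1021 with a peak, 90 (8.81%) were higher and 74 (7.25%) lower, and of the 12155 without, 655 (5.39%) were higher and 828 (6.81%) lower. The median log2 difference was 0.01 for genes with a peak and 0.01 over all genes tested. Genes with a peak also had higher levels, with a median of 392 normalized counts against 266. When genes were divided into 4 groups of equal size by mean level, the share called was larger with a peak than without in each. From the lowest to the highest level it was 13.9 against 8.57%, 15.2 against 12.2%, 15.0 against 11.7% and 18.8 against 16.6%. Split by direction, the share higher was larger with a peak in each group of level. The share lower was larger with a peak at the lower levels (5.56 against 4% and 6.84 against 5.71%). At the higher levels it was smaller with a peak (6.33 against 6.45% and 9.24 against 11.3%). Calls in both directions together made up 16.1% of genes with a peak and 12.2% of genes without, and 10.5 and 8.02% without Cre-labelled library 1.

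Among groups of peak score, higher genes were most frequent under the strongest peaks. Genes with a peak were divided by their highest peak score into 4 groups, of unequal size because scores are tied, with group 4 holding the strongest. In group 4, 48 of 257 genes were higher (18.7%) and 18 lower. In groups 3, 2 and 1, 17 of 235, 12 of 299 and 13 of 230 were higher, and 19, 19 and 18 were lower. With 1 library left out at a time, group 4 had 36 to 42 higher and 12 to 20 lower genes, and groups 1 to 3 together had 25 to 45 higher and 33 to 56 lower genes. Of the groups by distance, genes with their nearest peak within 500 bases of a start were called least often, with 31 of 567 higher and 37 lower. Those with it at 2000 to 5000 bases had 22 of 114 higher and 10 lower, as the plot of calls by peak shows. By the authors' annotation of the nearest peak, 28 of 439 genes with a promoter peak, 37 of 338 with an intron peak and 15 of 112 with an intergenic peak were higher, and 27, 22 and 16 were lower. Of 44 genes with at least 2 peaks, 9 were higher and 1 lower.

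**Figure D2:**
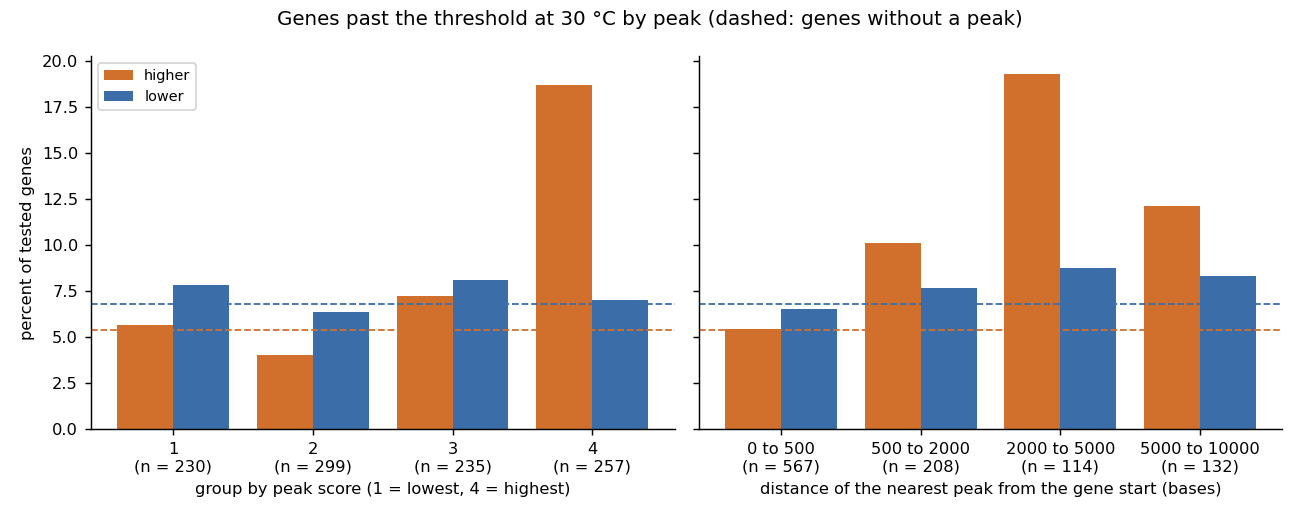
Percent of tested genes that were higher (orange) or lower (blue) at 30 °C, by peak score group (1 lowest, 4 highest) and by distance of the nearest peak from the gene start, with the number of genes under each pair of bars. Dashed lines mark the 5.39% higher and 6.81% lower among genes without a peak, and score group 4 reaches 18.7% higher.

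The rule takes genes that averaged at least 100 in the higher group with no overlap, leaves out clone names and gene models, and sets aside the 6 largest differences in each direction. Among the genes it then takes, Socs2 led the higher ones with a peak. The clone-named 0610005C13Rik, named here after its values were seen, has a peak of score 6.61 and a larger log2 difference, 6.14. Socs2 encodes a suppressor of cytokine signalling that dampens growth hormone and STAT5 responses. Its peak, 72 bases before the start (chr10:95416839-95417019), scored 122.6 where the median over all 3022 peaks was 5.18. Socs2 read 71.4, 82, 94.1 and 81.5 normalized counts in the controls and 734, 647, 692 and 761 in the Cre-labelled libraries, a log2 difference of 3.10 ± 0.25 (adjusted p = 6.67e-07). The spread within each group was small beside the gap between them. Atp5g1, which encodes the c subunit of the ATP synthase rotor, had 2 peaks, the nearer 1212 bases before its start with a score of 48.6. It read 134, 144, 148 and 117 in the controls and 695, 944, 1070 and 765 in the Cre-labelled libraries (log2 difference 2.65 ± 0.26, adjusted p = 6.16e-06). Its reads may be split with those of its paralogs Atp5g2 and Atp5g3, which encode the same mature protein.

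The other higher genes with a peak had varied functions. Srgap3, a GTPase-activating protein with a peak of score 19.1, was at 12.4 to 34.6 among controls against 108 to 155 among Cre-labelled libraries (log2 difference 2.72 ± 0.30). Lrrn4, a leucine-rich repeat membrane protein with an intron peak of score 29.5, was at 42.6 to 57.2 among controls against 244 to 440.0 among Cre-labelled libraries (log2 difference 2.67 ± 0.22). Neither gene overlapped between the groups, a condition of the rule. Ccdc80, a secreted protein of adipocytes with 2 peaks, was at 814 to 1257 among controls against 3211 to 4485 among Cre-labelled libraries (log2 difference 2.00 ± 0.22). The imprinted gene Nnat, which encodes a small membrane protein, had an exon peak of score 5.90 and was at 1012 to 2375 among controls against 9956 to 15798 among Cre-labelled libraries (log2 difference 2.96 ± 0.30). Rasl11b, a Ras-like GTPase with a promoter peak of score 4.65, was at 19.3 to 29.7 among controls against 88.4 to 135 among Cre-labelled libraries (log2 difference 2.15 ± 0.35). Adjusted p ran from 9.85e-07 to 0.000769 over these 5 genes.

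**Figure D3:**
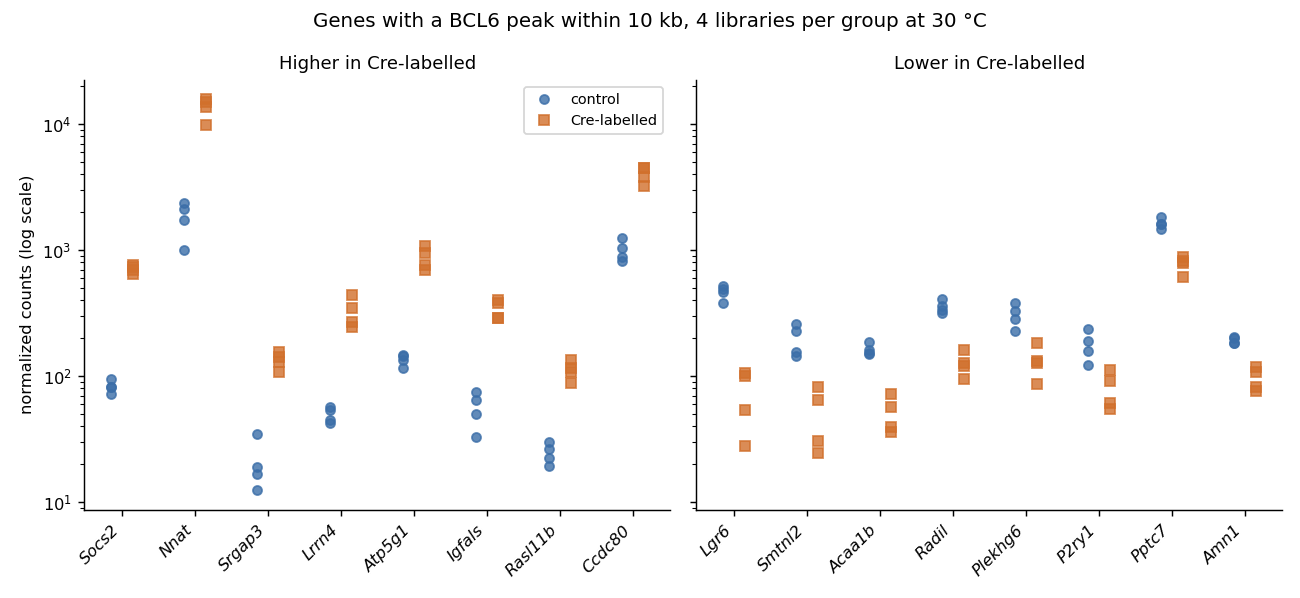
Normalized counts (log scale) of the 8 higher and 8 lower named genes with a BCL6 peak within 10 kb, 4 control libraries (blue circles) and 4 Cre-labelled libraries (orange squares) at 30 °C, 1 point per library. The groups do not overlap in any of the 16 genes, a condition of the rule that chose them.

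Lower genes with a peak were spread over the 4 score groups, and the 8 that the rule takes had scores of 4.11 to 11.3. Lgr6, a receptor for the R-spondins that amplify Wnt signals, fell the most, from 517, 464, 383 and 492 normalized counts in the controls to 53.9, 107, 27.7 and 100.2 in the Cre-labelled libraries (log2 difference -2.84 ± 0.35, adjusted p = 5.49e-05). Its peak lay 6115 bases before the start with a score of 4.11. P2ry1, a receptor for extracellular ADP with a peak 41 bases after the start, was at 123 to 236 among controls against 54.8 to 111 among Cre-labelled libraries (log2 difference -1.16 ± 0.25, adjusted p = 0.00528). Pptc7, a mitochondrial phosphatase, was at 1466 to 1824 among controls against 607 to 879.5 among Cre-labelled libraries (log2 difference -1.09 ± 0.13, adjusted p = 4.8e-05). The peroxisomal thiolase gene Acaa1b, which has a near-identical paralog in Acaa1a, was at 151 to 187 among controls against 36.1 to 71.9 among Cre-labelled libraries (log2 difference -1.70 ± 0.28, adjusted p = 0.000687). Smtnl2 (-2.07), Radil (-1.51), an effector of the GTPase Rap, and Amn1 (-1.02) fell too, as log2 differences. Plekhg6, a guanine nucleotide exchange factor, fell by 1.23 on the log2 scale and lost its call without control library 1, 3 or 4 or Cre-labelled library 1, 2 or 4 (highest adjusted p = 0.103).

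Genes without a peak reached differences as large. Ttpa, the tocopherol transfer protein that moves vitamin E, read 8.43, 25.1, 8.23 and 16.8 normalized counts in the controls and 159, 161, 101 and 125 in the Cre-labelled libraries (log2 difference 3.25 ± 0.30, adjusted p = 2.38e-06). Mest and Peg3, imprinted genes expressed from the paternal allele, were higher by 2.87 ± 0.40 and 2.61 ± 0.23. Adamts15, a secreted protease of the matrix, was at 42 to 53.3 among controls against 201 to 505 among Cre-labelled libraries (log2 difference 2.55 ± 0.30). Fndc5, the precursor of irisin, was at 11.1 to 42 among controls against 105 to 189.9 among Cre-labelled libraries (log2 difference 2.60 ± 0.42). Wscd2 (2.75) and Mmd2 (2.51) complete the higher genes that the rule takes here, with Acot4, which is described with its family.

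On the lower side, Aldoc, the brain-type isoform of the glycolytic enzyme aldolase, read 128, 136, 136 and 111 in the controls and 6.21, 14, 11.3 and 14.7 in the Cre-labelled libraries (log2 difference -3.41 ± 0.37, adjusted p = 1.54e-05). Myo5b, a motor for recycling vesicles, was at 691 to 815 among controls against 119.9 to 166 among Cre-labelled libraries (log2 difference -2.44 ± 0.14, adjusted p = 1.84e-08), with little spread in either group. Gmpr, which converts GMP to IMP in purine salvage, was at 1887 to 2308 among controls against 304 to 501 among Cre-labelled libraries (log2 difference -2.37 ± 0.28). The sorting receptor Sorcs2 (-3.22 ± 0.52), the serine protease Prss12 (-2.72 ± 0.30), the cytosolic thiolase Acat3 (-2.57 ± 0.42) and the interferon-inducible Ifi27l2a (-2.50 ± 0.39) fell as well, as log2 differences. Actn2, the sarcomeric alpha-actinin of skeletal muscle, read 8.55, 199.8, 112 and 22.7 in the Cre-labelled libraries, lowest in the libraries with the lowest muscle sums. Every control library read higher than these, a condition of the rule. Yet the muscle sums of Cre-labelled libraries 2 and 3, 28645 and 23987, were above those of all controls. Actn2 lost its call without control library 1, 2, 3 or 4 or Cre-labelled library 1 or 4 (highest adjusted p = 0.158).

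Gene functions were described with 56 lists, which hold 4215 of the tested genes together with 10 lists of cell type markers. A count given for a list without a library is the lowest over the 8 fits that leave 1 library out. Of the 32 counts of 1 or 2 members over all lists, 19 moved by over 1.5 times in those fits, to between 0 and 7, and such counts are given without that range. Over all genes tested the median log2 difference was 0.01, and the list counts are to be read against the 5.65% higher and 6.85% lower of all genes. The plot of calls by list orders the reported lists with at least 19 tested genes from mostly lower to mostly higher. Lists at the lower end were those of peroxisomes, mitochondria and glycogen. Those at the upper end were lists of macrophages, antigen presentation, the actin cytoskeleton and complement.

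**Figure D4:**
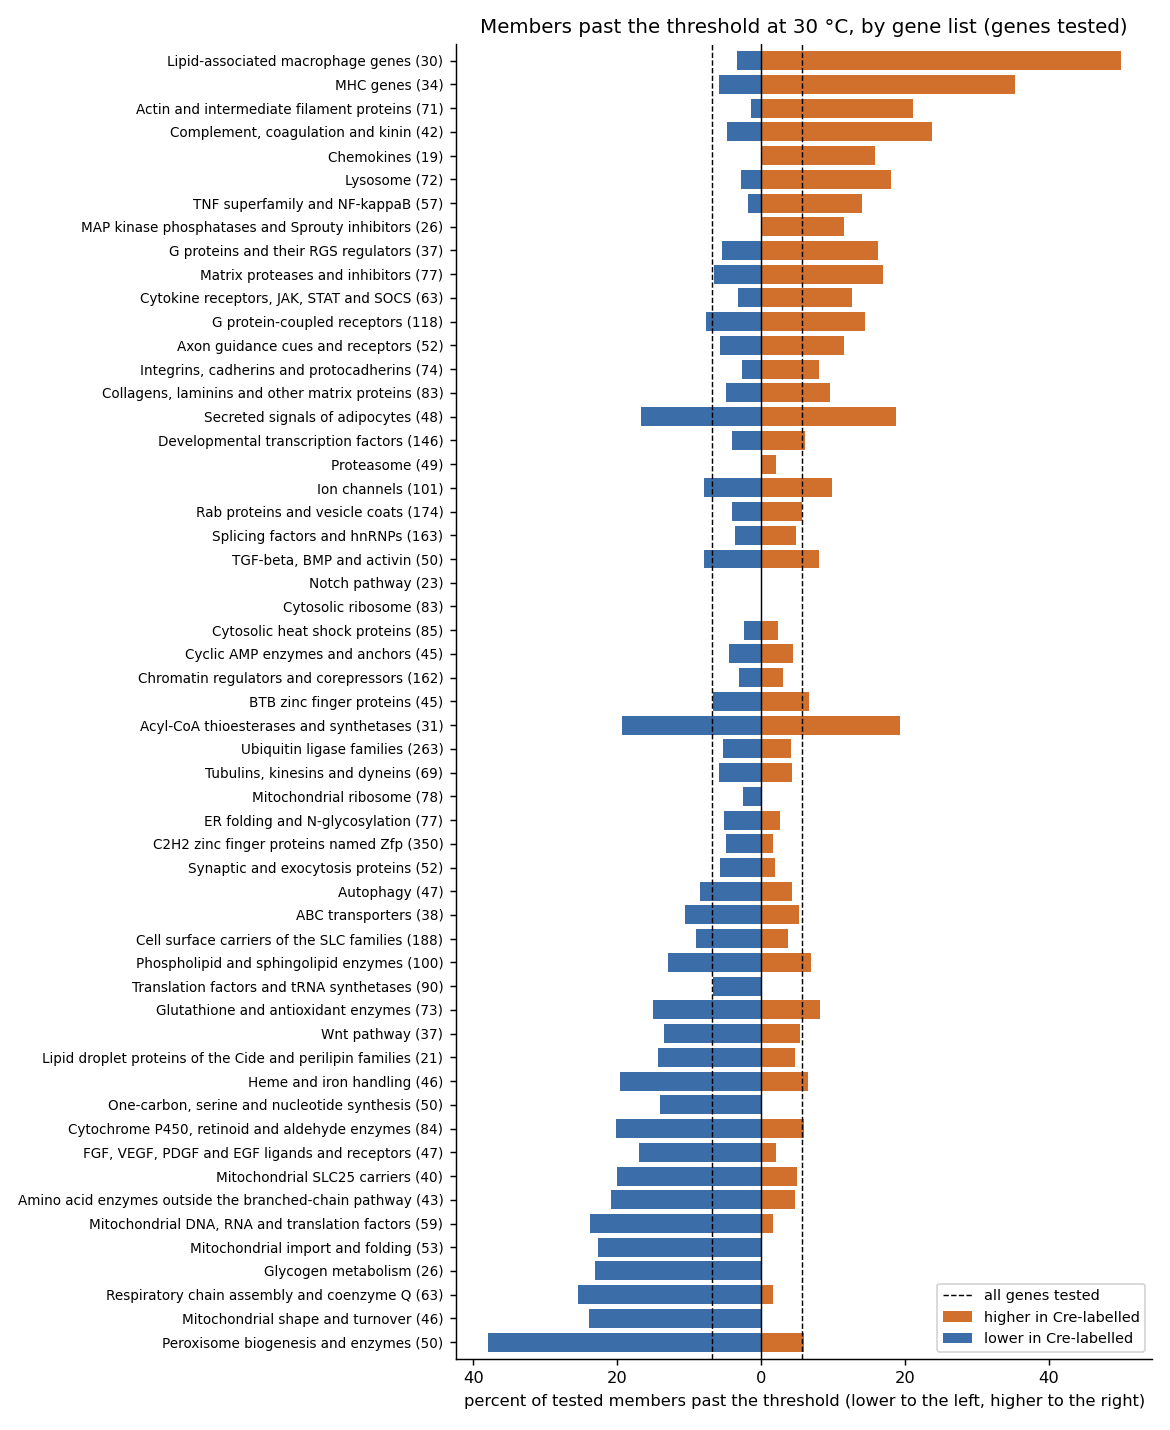
Percent of each list's tested members called higher (orange, to the right) or lower (blue, to the left) with the Cre label at 30 °C, with the number of tested members in brackets. Dashed lines mark 5.65% higher and 6.85% lower over all genes, and the peroxisome list stands lowest with 19 of 50 members lower.

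Peroxisomes shorten very long fatty acids and make ether lipids. Of 50 tested genes for their biogenesis and enzymes, 19 were lower and 3 higher, with a median log2 difference of -0.26. Pex2, a ubiquitin ligase of the import machinery, read 1090, 645, 1073 and 991 in the controls and 375, 468, 306 and 385 in the Cre-labelled libraries (log2 difference -1.29 ± 0.22, adjusted p = 0.00103). With 1 library left out, 13 to 18 members were lower, and the higher count was 1 without control library 1 or 3. Of the 7 members with a peak 3 were lower and 1 higher. The higher one, Pmp22, is known as a myelin protein and stands in the list through a shared name. It lost its call without control library 1, 2, 3 or 4 or Cre-labelled library 2 or 3 (highest adjusted p = 0.146).

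Genes for mitochondrial upkeep were lower in several lists, beside brown adipocyte marker sums that were lower, and white fat enriched sums that were higher, in every Cre-labelled library than in any control. Nnat alone made up 9956 to 15798 of the white fat sums with the Cre label. Of the 8 white fat enriched genes tested, 5 lay above 0 and 3 below. The part of the brown and white fat sums in the lists below was not tested. Of 63 genes for assembly of the respiratory chain and synthesis of coenzyme Q, 58 had a log2 difference below 0, 16 were lower and 1 was higher, with a median of -0.24. Coq6, a hydroxylase of coenzyme Q synthesis, was at 1587 to 1828 among controls against 882 to 1147 among Cre-labelled libraries (log2 difference -0.75 ± 0.12, adjusted p = 0.000542). Coq10b, a lipid-binding partner of coenzyme Q, was the higher one at 252 to 689 among controls against 695 to 1512 among Cre-labelled libraries (log2 difference 1.27 ± 0.31, adjusted p = 0.0114). Sdhaf3, an assembly factor of complex II with a promoter peak, was lower, with a log2 difference of -0.81 ± 0.20. The count of lower assembly genes was 6 without control library 4 or Cre-labelled library 1, the lowest over the 8 fits with a library left out.

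Import and folding (12 of 53 lower, none higher), DNA, RNA and translation factors (14 of 59 lower, 1 higher) and shape and turnover (11 of 46 lower, none higher) had median log2 differences of -0.21, -0.24 and -0.19. Mipep, which trims imported proteins, was at 961 to 1284 among controls against 667 to 789 among Cre-labelled libraries (log2 difference -0.69 ± 0.14). Top1mt, the topoisomerase of mitochondrial DNA, was at 206 to 305 among controls against 112 to 129 among Cre-labelled libraries (log2 difference -1.02 ± 0.15). Letmd1, an inner membrane protein needed for brown fat respiration, was at 3902 to 4472 among controls against 2068 to 2544 among Cre-labelled libraries (log2 difference -0.87 ± 0.11). In none of these 3 genes did the groups overlap, as was so for 844 of all 902 lower genes and 22.9% of all genes tested. None of the 17 members of these 3 lists that have a peak was called in either direction. The lowest counts with a library left out were 7 without Cre-labelled library 4, 9 without Cre-labelled library 1 or 3, and 6 without control library 1 or 4 or Cre-labelled library 1.

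The ribosome lists stood apart from that. The mitochondrial ribosome had 2 of 78 genes lower and none higher, with a median of -0.12 and 56 below 0. Of its lower genes, Mrps31 lost its call without control library 2, 3 or 4 or Cre-labelled library 1, 3 or 4 (highest adjusted p = 0.0835) and Mrps22 without control library 1, 2, 3 or 4 or Cre-labelled library 1, 3 or 4 (highest adjusted p = 0.154). None of 83 genes of the cytosolic ribosome was called, though 70 were above 0 and the median was 0.16. The proteasome had 1 of 49 higher, Psmb8, a subunit of the immunoproteasome, at 437 to 529 among controls against 769 to 986 among Cre-labelled libraries (log2 difference 0.84 ± 0.20, adjusted p = 0.0105).

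Mitochondrial SLC25 carriers, which move metabolites across the inner membrane, had 8 of 40 lower and 2 higher. Slc25a35 was at 1330 to 1704 among controls against 525 to 728 among Cre-labelled libraries (log2 difference -1.29 ± 0.16). The higher ones were Slc25a25, a calcium-regulated ATP and phosphate carrier, at 152, 420.2, 205 and 131 in the controls and 965, 615, 1372 and 600.1 in the Cre-labelled libraries (log2 difference 2.03 ± 0.39), and the phosphate carrier Slc25a3 (0.44 ± 0.11). Control library 2 had the highest control value of Slc25a25. Without Cre-labelled library 1, Slc25a3 lost its call (adjusted p = 0.0590) and the lower count was 4 without control library 1, 2 or 4 or Cre-labelled library 1. At the cell surface, 17 of 188 SLC carriers were lower and 7 higher. Slco4a1, a carrier of organic anions and thyroid hormone, was at 61.2 to 122 among controls against 8.01 to 18 among Cre-labelled libraries (log2 difference -2.85 ± 0.45, adjusted p = 0.000523). Slc11a1, a metal exporter of macrophage phagosomes, was at 77.2 to 95.6 among controls against 171 to 435 among Cre-labelled libraries (log2 difference 1.72 ± 0.24).

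Glycogen metabolism had 6 of 26 genes lower and none higher, with a median of -0.23. Gys2, the liver isoform of glycogen synthase, read 454, 503, 419 and 414 in the controls and 22.8, 27.1, 25 and 26.4 in the Cre-labelled libraries (log2 difference -4.09 ± 0.21, adjusted p = 4.51e-09). Pygl, the liver isoform of the phosphorylase that breaks glycogen down, was at 4398 to 4866 among controls against 1101 to 2449 among Cre-labelled libraries (log2 difference -1.56 ± 0.33, adjusted p = 0.00445). So an isoform of synthesis and one of breakdown fell together.

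Acyl-CoA thioesterases and synthetases, which release or activate fatty acids, split evenly, with 6 of 31 higher and 6 lower. Acot1, which has a peak, read 7.57, 25.1, 2.49 and 1.08 in the controls and 98.2, 161, 243 and 99.4 in the Cre-labelled libraries (log2 difference 4.47 ± 0.59). Acot4, in the same gene cluster, read 19.9, 109, 16.2 and 20.5 in the controls and 151, 207, 233 and 175 with the Cre label (log2 difference 2.65 ± 0.42). Control library 2 was the highest control for both. The genes of this cluster are close copies and their reads may be split among them. Acot11, a thioesterase outside the cluster, was at 969 to 1775 among controls against 281 to 481 among Cre-labelled libraries (log2 difference -1.76 ± 0.31), and the medium-chain synthetase Acsm3 was at 2322 to 3141 among controls against 799 to 1099 among Cre-labelled libraries (log2 difference -1.51 ± 0.21).

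Other metabolic lists had more members called lower than higher. One-carbon, serine and nucleotide synthesis had 7 of 50 lower and none higher. The lower count was 3 without control library 4. Cad, which starts pyrimidine synthesis, was at 642 to 843 among controls against 339.8 to 497 among Cre-labelled libraries (log2 difference -0.83 ± 0.19). Amino acid enzymes outside the branched-chain pathway had 9 of 43 lower and 2 higher. Odc1, the first enzyme of polyamine synthesis, was higher at 702 to 777 among controls against 987 to 1223 among Cre-labelled libraries (log2 difference 0.62 ± 0.14), and Csad, an enzyme of taurine synthesis, was lower at 1736 to 2100 among controls against 1028 to 1223 among Cre-labelled libraries (log2 difference -0.76 ± 0.10). Cytochrome P450, retinoid and aldehyde enzymes had 17 of 84 lower and 5 higher (11 without control library 2 or 4 for lower, 1 without Cre-labelled library 3 for higher). Of the 84, 40 lay above 0 and 44 below, with a median of -0.04. Glutathione and antioxidant enzymes had 11 of 73 lower and 6 higher, with log2 differences of -0.83 ± 0.17 for Gss, glutathione synthetase, and 1.54 ± 0.22 for the metal-binding Mt2. Of the 73, 31 lay above 0 and 42 below, with a median of -0.08.

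Heme and iron genes moved both ways. Of 46 tested, 9 were lower and 3 higher. Hp, haptoglobin, which binds free haemoglobin, was at 6792 to 10604 among controls against 2585 to 4524 among Cre-labelled libraries (log2 difference -1.21 ± 0.19, adjusted p = 0.000509). Hmox1, the heme oxygenase that degrades heme, has a peak and was at 186 to 229 among controls against 314 to 595 among Cre-labelled libraries (log2 difference 1.01 ± 0.19, adjusted p = 0.00230). Tfrc, the transferrin receptor, was at 2101 to 3373 among controls against 5768 to 8950 among Cre-labelled libraries (log2 difference 1.30 ± 0.35), and its call was lost without control library 4 or Cre-labelled library 3 (highest adjusted p = 0.0763). Of the 4 members with a peak 2 were higher and none lower.

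Cytokine signalling leaned higher. Of 63 receptors, JAK kinases, STAT factors and SOCS inhibitors, 8 were higher and 2 lower, with a median of 0.24 (5 without Cre-labelled library 1 for higher). The 6 with a peak had 2 higher, Socs2 and the prolactin receptor Prlr, and 1 lower, the interleukin-15 receptor subunit Il15ra. Prlr read 6.24, 22.3, 48.5 and 23.4 in the controls and 94.8, 76.5, 46.5 and 83.9 in the Cre-labelled libraries (log2 difference 1.80 ± 0.46), with overlap at 1 library of each group, and lost its call without Cre-labelled library 1 (highest adjusted p = 0.0552). Il15ra was at 1263 to 1892 among controls against 676 to 1275 among Cre-labelled libraries (log2 difference -0.89 ± 0.21). Ghr, the growth hormone receptor upstream of STAT5, was at 2872 to 3972 among controls against 1778 to 2986 among Cre-labelled libraries (log2 difference -0.52 ± 0.17) and lost its call without control library 1, 2 or 4 or Cre-labelled library 2, 3 or 4 (highest adjusted p = 0.164).

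TNF superfamily and NF-kappaB genes had 8 of 57 higher and 1 lower, with a median of 0.22, and 3 of the 8 with a peak were higher. Tnfrsf10b, a death receptor with a promoter peak, was at 247 to 344 among controls against 372 to 870.0 among Cre-labelled libraries (log2 difference 1.01 ± 0.27), and lost its call without control library 1 or Cre-labelled library 1 or 3 (highest adjusted p = 0.0688). The higher count of that list was 2 without Cre-labelled library 1. MAP kinase phosphatases and Sprouty inhibitors had 3 of 26 higher (2 to 5 with 1 library left out) and none lower. Dusp10, which inactivates JNK and p38, read 155, 510.5, 181 and 163 in the controls and 1000, 624, 1242 and 1159 in the Cre-labelled libraries (log2 difference 2.14 ± 0.33, adjusted p = 0.000476). Dusp8 read 43.9, 269.8, 63.1 and 77.2 in the controls and 387, 284, 458 and 509 with the Cre label (log2 difference 2.18 ± 0.44). Control library 2 was the highest control for both and did not reach the Cre-labelled range.

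G protein-coupled receptors had 17 of 118 higher and 9 lower, with a median of 0.19. Ptger4, a receptor for prostaglandin E2, was at 101 to 284 among controls against 375 to 807 among Cre-labelled libraries (log2 difference 1.54 ± 0.37), and C3ar1, the complement C3a receptor of myeloid cells, at 41.2 to 75.9 among controls against 90.5 to 298 among Cre-labelled libraries (log2 difference 1.59 ± 0.33). The higher count was 10 without Cre-labelled library 1. Downstream, Rgs11, a regulator that speeds G protein shut-off, fell from 264, 194, 311 and 220.4 to 17.7, 21.8, 15 and 13 (log2 difference -3.79 ± 0.28, adjusted p = 2.6e-07), while Rgs16 was at 6.66 to 17.5 among controls against 49.8 to 67.3 among Cre-labelled libraries (log2 difference 2.29 ± 0.39). Cyclic AMP enzymes and anchors had 2 of 45 in each direction. Pde4a, a phosphodiesterase that degrades cyclic AMP, was at 1120 to 1525 among controls against 437 to 646 among Cre-labelled libraries (log2 difference -1.24 ± 0.14), and Prkaca, the catalytic subunit of protein kinase A, at 3389 to 3796 among controls against 2141 to 2700 among Cre-labelled libraries (log2 difference -0.51 ± 0.11).

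Ion channels had 10 of 101 higher and 8 lower. Kcnj11, the pore of the ATP-sensitive potassium channel, read 224, 214, 254 and 205 in the controls and 27.1, 107, 56.3 and 47.4 in the Cre-labelled libraries (log2 difference -2.06 ± 0.34). The calcium channel subunit Cacna1a was at 167 to 314 among controls against 51.1 to 82.6 among Cre-labelled libraries (log2 difference -1.83 ± 0.24). The higher count was 5 without control library 4 or Cre-labelled library 1 or 4.

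Growth factor lists differed. Ligands and receptors of the FGF, VEGF, PDGF and EGF families had 8 of 47 lower and 1 higher, with a median of -0.12, and the lower count was 3 without control library 4 or Cre-labelled library 1. Fgf1 was at 277 to 329 among controls against 109 to 209 among Cre-labelled libraries (log2 difference -0.95 ± 0.19) and Pdgfd at 249.8 to 302 among controls against 98.4 to 168 among Cre-labelled libraries (log2 difference -1.08 ± 0.18). TGF-beta, BMP and activin genes had 4 of 50 in each direction (2 without control library 1 or 4 or Cre-labelled library 3 or 4 for higher, 2 without control library 1 or 4 or Cre-labelled library 1 or 4 for lower). Inhbb, which encodes a subunit of activin B, was at 39 to 55.4 among controls against 150.3 to 188 among Cre-labelled libraries (log2 difference 1.94 ± 0.39), and the BMP family ligand Gdf5 was at 240.1 to 407 among controls against 76.8 to 149 among Cre-labelled libraries (log2 difference -1.61 ± 0.26). Of 37 Wnt pathway genes 5 were lower, with the receptor Fzd8 at 162 to 303 among controls against 70.5 to 113 among Cre-labelled libraries (log2 difference -1.32 ± 0.22), and 2 were higher, with the transcription factor Tcf7 at 16 to 29.8 among controls against 51.8 to 70.7 among Cre-labelled libraries (log2 difference 1.37 ± 0.24). None of 23 Notch pathway genes was called, and their median was 0.13.

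Of the cytoskeleton and adhesion lists, that of actin had the largest share higher. Actin and intermediate filament genes had 15 of 71 higher and 1 lower. Zyx, a focal adhesion protein with a promoter peak of score 5.18, read 675, 743, 540.4 and 471 in the controls and 1558, 1038, 2103 and 1613 in the Cre-labelled libraries (log2 difference 1.35 ± 0.23, adjusted p = 0.000808). Fhl1, a LIM protein of muscle, was the lower one at 2510 to 2860 among controls against 1027 to 1746 among Cre-labelled libraries (log2 difference -1.03 ± 0.22). Integrins, cadherins and protocadherins had 6 of 74 higher (3 without control library 3 or 4 or Cre-labelled library 1 or 4) and 2 lower. The adhesion molecule Cdh2, N-cadherin, fell from 1066, 1172, 938 and 1375 to 328, 456, 375 and 467 (log2 difference -1.48 ± 0.15). Tubulins, kinesins and dyneins had 3 of 69 higher and 4 lower (1 without control library 1, 3 or 4 or Cre-labelled library 1 or 4 for higher, 2 without control library 4 or Cre-labelled library 1 for lower). The higher count of the actin list was 5 without Cre-labelled library 4.

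Many higher genes of the immune and lysosome lists are macrophage genes, and the macrophage sums given above were higher too. Ctss, named below for the lysosome list, is itself among the markers in those sums, so they are not a separate reading of it. Of 30 lipid-associated macrophage genes 15 were higher and 1 lower, with a median of 0.68, and none has a peak. Gpnmb, a membrane glycoprotein of such macrophages, read 210.3, 105, 171 and 107 in the controls and 2550, 1065, 158 and 4684 in the Cre-labelled libraries (log2 difference 3.07 ± 0.69, adjusted p = 0.00722). Cre-labelled library 3, with the lowest macrophage sum of its group, lay within the control range, and library 4, with the highest, read highest. Lysosome genes had 13 of 72 higher and 2 lower (8 without Cre-labelled library 1 or 4 for higher), with Ctss, a cysteine protease of antigen-presenting cells, at 307 to 438 among controls against 484 to 2911 among Cre-labelled libraries (log2 difference 1.96 ± 0.43). Chemokines had 3 of 19 higher, with Ccl6 at 120.2 to 169 among controls against 283 to 641 among Cre-labelled libraries (log2 difference 1.57 ± 0.32). The share of these differences that goes with the number of macrophages was not tested.

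MHC genes had 12 of 34 higher and 2 lower, with a median of 0.47. Cd74, the invariant chain of class II, was at 2034 to 2651 among controls against 3341 to 4650 among Cre-labelled libraries (log2 difference 0.84 ± 0.16, adjusted p = 0.00262). H2-Q10, a secreted class I molecule whose reads may be split with other class I genes, fell from 917, 1099, 1185 and 867 to 212, 215, 274 and 170.1 (log2 difference -2.23 ± 0.32, adjusted p = 0.000225). The higher count was 4 without control library 4 or Cre-labelled library 1. Complement, coagulation and kinin genes had 10 of 42 higher and 2 lower, with a median of 0.32 (5 without control library 4 for higher). Plaur, the urokinase receptor, was at 22.4 to 52.9 among controls against 105 to 159 among Cre-labelled libraries (log2 difference 1.53 ± 0.28). Kng2, a kininogen, fell from 2546, 2447, 2404 and 2587 to 187, 284, 97.3 and 170.0 (log2 difference -3.85 ± 0.26, adjusted p = 1.04e-07).

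Matrix proteases and their inhibitors had 13 of 77 higher and 5 lower, with a median of 0.29 (7 without control library 4 for higher, 3 without control library 1 or 4 or Cre-labelled library 3 for lower). Mmp12, a macrophage elastase, read 420.1, 213, 362 and 249 in the controls and 2882, 1648, 190.3 and 3978 in the Cre-labelled libraries, low in the library with the lowest macrophage sum, and lost its call without control library 2 or 4 or Cre-labelled library 1, 2 or 4 (highest adjusted p = 0.101). Adam12 was lower at 341 to 498 among controls against 129 to 226 among Cre-labelled libraries (log2 difference -1.21 ± 0.24). Collagens, laminins and other matrix proteins had 8 of 83 higher and 4 lower (3 without control library 4 for higher, 2 without control library 3 or 4 or Cre-labelled library 1, 2 or 4 for lower). Thbs1, thrombospondin 1, read 166, 578, 91.1 and 128 in the controls and 582, 555, 1530 and 1521 with the Cre label (log2 difference 2.34 ± 0.52), with control library 2 inside the Cre-labelled range. Fras1, a basement membrane protein, fell from 187, 212, 190.5 and 227 to 6.05, 7.86, 7.59 and 8.57 (log2 difference -4.59 ± 0.48). Secreted signals of adipocytes had 9 of 48 higher and 8 lower, and the 5 with a peak were above 0. The counts were 5 without control library 4 for higher and 4 without control library 1 for lower. Ptgds, which makes prostaglandin D2, fell from 95.6, 72, 109.7 and 53.1 to 6.51, 9.74, 6.44 and 12.5 (log2 difference -3.09 ± 0.25, adjusted p = 7.61e-07).

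Endothelial markers had 4 of 12 higher and all 12 above 0, with a median of 0.41, and their sums overlapped slightly, lying between 23623 and 29243 in controls and between 29179 and 36412 with the Cre label. Cldn5, a tight junction protein, was at 331 to 868 among controls against 957 to 2133 among Cre-labelled libraries (log2 difference 1.43 ± 0.29). The higher count was 1 without control library 1 or 4 or Cre-labelled library 1 or 3. Mural markers had 2 of 10 higher, Tagln (0.92 ± 0.17) and Acta2 (0.71 ± 0.17), both contractile proteins. Of the 10, 5 lay above 0 and 5 below, with a median of 0.02. The preadipocyte gene Dlk1 was the 1 lower gene of 12 progenitor and fibroblast markers, at 292 to 391 among controls against 114 to 197 among Cre-labelled libraries (log2 difference -0.97 ± 0.23). Of those 12 markers 9 lay above 0 and 3 below, with a median of 0.18.

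Lists of the nucleus had few calls. Of 350 C2H2 zinc finger genes named Zfp, 17 were lower and 6 higher, but 246 lay below 0 and the median was -0.14 (5 without control library 4 or Cre-labelled library 3 for lower, 2 without control library 1 or 4 for higher). Zfp703 was higher at 1168 to 1349 among controls against 2381 to 5080 among Cre-labelled libraries (log2 difference 1.24 ± 0.20). Chromatin regulators and corepressors had 5 of 162 in each direction (1 without control library 4 for higher, 1 without control library 1 or Cre-labelled library 1 for lower). Kmt5a, a histone H4 methyltransferase, was at 829 to 983 among controls against 410.3 to 553 among Cre-labelled libraries (log2 difference -0.93 ± 0.14), and Prdm16, a determinant of brown adipocyte fate, was at 499 to 633 among controls against 316 to 401 among Cre-labelled libraries (log2 difference -0.68 ± 0.20) and lost its call without control library 1, 2 or 4 or Cre-labelled library 1, 2 or 3 (highest adjusted p = 0.0966). Developmental transcription factors had 9 of 146 higher and 6 lower. The counts were 4 without control library 1 or 4 or Cre-labelled library 1 or 3 for higher and 2 without control library 1 or Cre-labelled library 4 for lower. Inhibitors of helix-loop-helix factors stood on both sides, with Id1 at 303 to 840.5 among controls against 1042 to 1440 among Cre-labelled libraries (log2 difference 1.27 ± 0.26) and Id2, which has a peak 8038 bases before its start, at 469 to 634 among controls against 266 to 354 among Cre-labelled libraries (log2 difference -0.89 ± 0.14). Splicing factors and hnRNPs had 8 of 163 higher and 6 lower (4 without control library 1 or Cre-labelled library 1 or 4 for higher, 2 without control library 1 or 4 or Cre-labelled library 1 or 3 for lower), with the splicing regulator Esrp2 at 91.1 to 122 among controls against 24.9 to 38 among Cre-labelled libraries (log2 difference -1.79 ± 0.25).

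Lists of protein turnover and the secretory pathway followed. Ubiquitin ligase families had 11 of 263 higher and 14 lower (6 without control library 1 for higher, 6 without control library 4 for lower). Klhl13, a substrate adaptor of cullin 3, read 71.9, 66.2, 75.7 and 69.7 in the controls and 274, 259.8, 224 and 281 in the Cre-labelled libraries (log2 difference 1.86 ± 0.14, adjusted p = 2.6e-07). Autophagy had 2 of 47 higher, Becn1 (0.36 ± 0.08) and Sqstm1 (0.41 ± 0.11), and 4 lower (1 without control library 1, 3 or 4 or Cre-labelled library 1 or 4), a share called near that of all genes. The call of Sqstm1 was lost without control library 3 or 4 or Cre-labelled library 2 (highest adjusted p = 0.0708). Of 77 genes for folding and glycosylation in the endoplasmic reticulum 2 were higher and 4 lower (2 without control library 1 or Cre-labelled library 1). The largest fall was that of Tusc3, a subunit of the oligosaccharyltransferase that attaches N-glycans, from 3772, 3903, 3082 and 3012 to 215, 259.7, 206 and 261 (log2 difference -3.86 ± 0.21, adjusted p = 4.7e-09).

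Among the other lists, phospholipid and sphingolipid enzymes had 7 of 100 higher (3 without Cre-labelled library 1 or 3) and 13 lower, ABC transporters 2 of 38 higher and 4 lower, and lipid droplet proteins 1 of 21 higher and 3 lower (0 without control library 1 or 4 or Cre-labelled library 1 for lower). Axon guidance genes had 6 of 52 higher and 3 lower (3 without control library 1 or 4 or Cre-labelled library 3 or 4 for higher, 1 without Cre-labelled library 1 or 4 for lower). Synaptic and exocytosis proteins had 1 of 52 higher and 3 lower, and Rab proteins and vesicle coats 10 of 174 higher and 7 lower (3 without control library 3 or 4 for higher, 4 without control library 1, 3 or 4 or Cre-labelled library 1 or 3 for lower). Translation factors and tRNA synthetases had 6 of 90 lower (2 without Cre-labelled library 1 or 3) and none higher, and cytosolic heat shock proteins 2 of 85 in each direction. BTB zinc finger proteins, the family of BCL6, had 3 of 45 in each direction (0 without control library 3 or 4 or Cre-labelled library 1 or 3 for lower). Of 13 lymphocyte markers 2 were higher, and none of 3 erythroid markers passed.

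The difference between the same genotypes at 22 °C shares no library with the difference at 30 °C. Both were tested with the same spread per gene, taken from all 16 libraries, so their calls are not independent. There 726 genes (5.51%) were higher and 618 (4.69%) lower. Of the 745 genes higher at 30 °C, 674 had the same sign at 22 °C and 268 were called in the same direction, which is 36.0% of the 30 °C list and 36.9% of the 22 °C list. Of the 902 lower genes, 818 had the same sign and 335 were called as lower at 22 °C, 37.1% of the 30 °C list and 54.2% of the 22 °C list. The median log2 difference of the higher genes was 0.81 at 30 °C and 0.49 at 22 °C, and that of the lower genes was -0.66 and -0.39. Since these genes were chosen at 30 °C, the smaller median at 22 °C is a description and not a test. The difference between temperatures was called for 58 of the tested genes (0.440%), 17 of them among the higher and 22 among the lower genes at 30 °C.

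Among the 216 genes of the naming rule, 15 had a difference that changed with temperature, and 8 did without control library 3 or Cre-labelled library 1. The rule chose these genes by their differences at 30 °C, which enter the interaction. Their count is therefore a description and is not to be set against the 0.440% of all genes. The same holds for the 17 and 22 genes called at 30 °C. Tusc3 had a log2 difference of -3.86 at 30 °C and -0.47 at 22 °C (adjusted p of the interaction = 1.23e-05), and Rgs11 -3.79 and -0.68 (0.000921). Gys2 fell at both temperatures, with log2 differences of -4.09 and -2.28 (0.00975). Ddah1, which degrades an inhibitor of nitric oxide synthase, was lower at 30 °C (-1.78) and higher at 22 °C (0.73), the interaction having an adjusted p of 1.23e-05. Prss12 was lower at 30 °C (-2.72) and at 0.78 at 22 °C without passing there (adjusted p = 0.107; interaction 0.000564). Mt2 was higher at 30 °C (1.54) and did not pass at 22 °C (-0.55; interaction 0.00350). Atp5g1 was higher at both, more so at 22 °C (4.88; interaction 0.0114). Socs2 (2.55 at 22 °C) and Igfals (1.80) rose at both temperatures, with adjusted interaction p of 0.643 and 0.292.

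**Figure D5:**
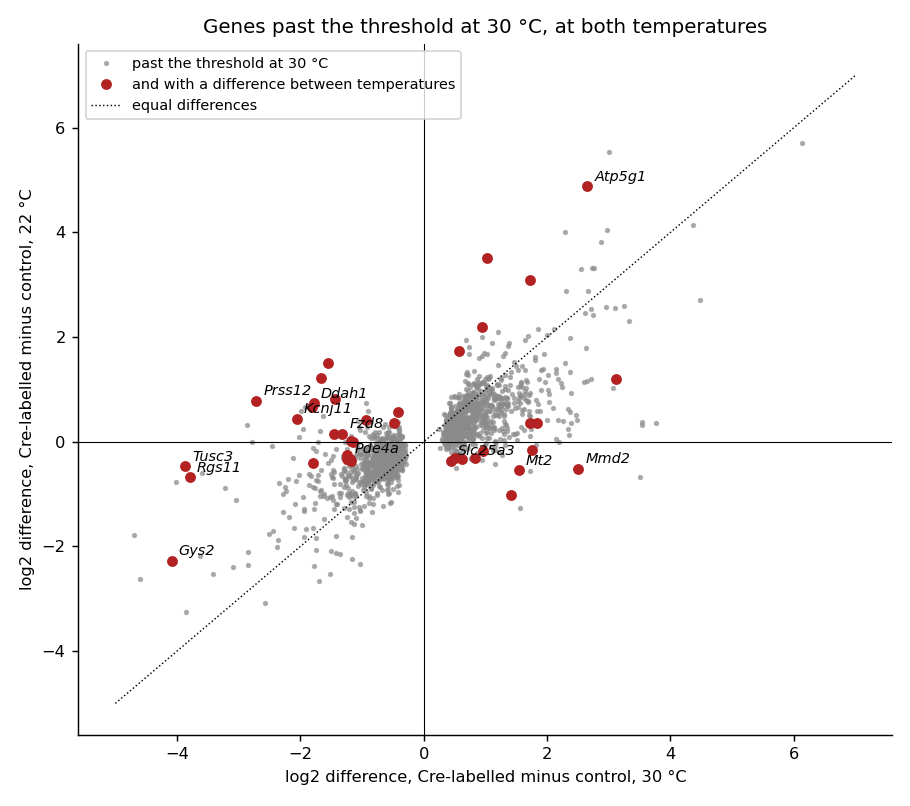
Log2 difference between Cre-labelled and control libraries at 30 °C (x axis) and 22 °C (y axis) for the genes past the threshold at 30 °C, 1 point per gene, with red points where the difference between temperatures passed. Most points lie in the quadrants of equal sign and nearer to 0 on the 22 °C axis, as the medians of 0.81 and 0.49 for higher genes show.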

How the data were processed

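The RNA values are signal on the scale of sequencing counts: gene estimates normalized by the authors, not whole counts. The submitters' processing notes name kallisto and DESeq2 for RNA and Bowtie2 and HOMER for ChIP, on mm10. The deposited peak list gives a HOMER score per peak, which is the authors' value, and the authors' distance to the nearest start. A fraction in the deposited peak list, the share of a peak's tags near its centre, was not used. Whole reads could not be recovered, so no count test was run.

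Genes averaging 10 or more across the 16 libraries were tested on log2(value + 1), which understates the change of low genes, with limma 3.58.1 in R 4.3.3 (moderated test with a mean-variance trend, 1 mean for each of 4 groups, Benjamini-Hochberg over 13176 genes, threshold 0.05). A peak belongs to the 1 gene that the authors give as nearest, when their distance is at most 10 kb. Of the symbols, 26 that had turned into dates were restored, and 14 entries had none. Named genes were Bcl6, up to 4 members per list (the 2 largest and 2 smallest differences past the threshold that averaged 50 or more in whichever group was higher), and, with and without a peak, the 8 highest and 8 lowest averaging 100 or more there with no overlap, after setting aside the 6 largest in each direction. Members and lists were chosen with earlier results of these data known. A gene list and a gene that the naming rule takes are not reported here. On simulated data with independent noise, 50 of the 13176 genes were changed at each size and no others. The test recovered 34, 68, 90 and 98% of genes changed by 0.5, 1, 2 and 4 on the log2 scale. Unchanged genes made up 3.97% of its calls. Far fewer genes changed there than the 1647 called here, so these rates need not hold for this comparison.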

Additional observations from a re-analysis of the deposited data

Results flagged for a closer look

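In 8 of the 220 groups of 4 libraries examined (110 genes named in the text, 2 groups each at 30 °C), 1 library lay apart from the other 3, with a gap to its neighbour, as a share of the range, above Dixon's 95% critical value. Chance alone gives about 1 in 20 such groups. All 8 were control libraries. Control library 2 read high for Acot4 (108.6 normalized counts), Dusp10 (510.5), Dusp8 (269.8) and Thbs1 (578.2), control library 1 read high for Pde4a (1525), control library 4 read high for Strip2 (499.7), control library 3 read low for Sorcs2 (336.8), and control library 1 read low for Plaur (22.4).

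For 12 of these genes the difference between Cre-labelled and control libraries itself differed between 30 °C and 22 °C, by the limma interaction term adjusted over all genes. Most of the genes examined were chosen by their differences at 30 °C, so this count is a description. The log2 difference at 30 °C minus that at 22 °C was -2.23 for Atp5g1, 3.02 for Mmd2, -3.50 for Prss12, 0.81 for Slc25a3, -1.81 for Gys2 and 2.09 for Mt2. It was -3.12 for Rgs11, -0.92 for Pde4a, -2.50 for Kcnj11, -1.48 for Fzd8, -3.39 for Tusc3 and -2.52 for Ddah1. Of these, Mmd2, an adiponectin receptor family member, read 314, 206, 751 and 639 normalized counts in the Cre-labelled libraries at 30 °C.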

How the results depend on the processing

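No result followed through the alternatives changed direction, and the log2 differences of 0610005C13Rik and Hoxc8 were not followed. Fitting the 8 libraries at 30 °C alone gave 1123 higher genes (745 in the fit of all 16) and 1289 lower (902). Without a filter on low values, 7.99% of genes without a peak were called against 12.2%. The count of named genes whose difference changed with temperature, 15, was 8 with no trend and 9 with a muscle marker score as covariate. Leaving out 1 library at a time gave 452 to 742 higher and 559 to 857 lower genes, 10.5 to 16% called with a peak and 7.41 to 11.8% without, 8 to 19 genes that changed with temperature, and log2 differences of 1.06 to 1.47 for Bcl6. The share with a peak that was called stayed above the share without one in each of these fits, and the causes of the changes were not tested.

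The labels give both groups the numbers 1 to 4, but same-numbered libraries did not deviate together (correlations -0.115, 0.0463, 0.0968 and -0.0006). With the replicate number as a block, 686 genes were higher and 804 lower, 1432 of the 1647 calls were shared, and 8 named genes changed with temperature. The list of upper and lower peak scores under each setting was added after seeing the data. The read depth behind these normalized values is not known and no counting interval can be given.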
